A study of Canis lupus familiaris with 28 samples.

Results

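Histiocytic sarcoma (HS) is a cancer of dogs that arises from cells of the macrophage and dendritic cell lineages, and its hemophagocytic form (HHS) is made up of macrophages that engulf blood cells. RNA was compared between the 4 HS tumors taken from the liver of Bernese Mountain Dogs (BMDs) and the 1 unaffected liver, which came from a German Shepherd. These 5 libraries were chosen by their tissue label out of 28 in the series and 24 in the tumor table. Tumors HS33, HS36 and HS50 carry the disease label HS, and HS46 carries the hemophagocytic label. The remaining libraries of the table, used here for reference, were 14 HS or HHS tumors of other sites and 5 control libraries of spleen, lung and blood. The tumors of other sites and the blood controls came from BMDs, and the spleen and lung controls from German Shepherds. All RNA was total RNA depleted of ribosomal and globin RNA. By the library names the 5 liver libraries were run on the same flow cell, and the blood controls on another. The labels give no age or treatment, and the study left the liver control out of its own comparison. Breed and disease cannot be told apart here, nor where tumors are set beside the spleen and lung controls. The difference between tumor and liver control rests on a single control library that is assumed to vary as the 4 tumors do.

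Hepatocytes, the main cells of normal liver, carry out the urea cycle, gluconeogenesis and the breakdown of amino acids, and secrete most plasma proteins. Bile ducts are lined by an epithelium of their own, and the liver also holds endothelium, stromal cells, lymphocytes and resident macrophages. HS cells express macrophage and dendritic cell genes, among them the major histocompatibility complex (MHC) class II genes with which such cells present antigen. In bulk tissue, fewer cells of a type and less RNA per cell cannot be told apart.

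The 4 liver tumors had 137066069 to 171712524 counted reads and the liver control had 180801439. The floor used here, 3 counts, equals 0.0485 CPM (counts scaled to library size) in the control and 0.0172 to 0.0245 CPM in the tumors after scaling. Levels are given as log2 CPM, after scaling by edgeR's TMM factors and with a prior count of 2, so that a gene with 0 counts is at -6.22. The TMM factor was 0.342 in the liver control and 0.859 to 1.16 in the liver tumors. In the control, the 10 most abundant genes took 32.7% of all counts, and ENSCAFG00000003016, which has no name in the tables used here, took 12.8% alone (95% Wilson confidence interval 12.785% to 12.795%, counting error only). That gene took 0.00960% of the counts in HS33, 0.00229% in HS36 and 1.0e-04% in HS46, and 1 read in HS50.

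After the filter on low counts, 19979 genes were tested by edgeR's quasi-likelihood test. The filter kept a gene with enough reads in a single library, so some genes passed only through the control. For those a lower level in the tumors was fixed beforehand. At an absolute log2 fold change (log2FC, tumors minus control) above 1.5 and with a Benjamini-Hochberg adjusted p-value under 0.05, 898 genes were called, or 4.49% of those tested. Of these, 123 (0.616%) were higher in the tumors and 775 (3.88%) were lower. Before adjustment, 4478 genes had p below 0.05, and the smallest adjusted p-value was 0.00846. The median log2FC of all genes was 0.38, against which the values below should be read. When the counts were scaled by library size alone this median was 1.97, and 614 genes were called, 359 higher and 255 lower. The split of the calls by direction thus depends on the scaling, whereas all 898 genes kept their sign under every scaling. They also kept it under every filter and left-out tumor in which they were tested. That was nearly fixed beforehand, because in each of these genes every tumor lay on the same side of the control. Under a Benjamini-Yekutieli adjustment 0 genes passed. DESeq2 called 3756 genes, 2058 higher and 1698 lower, and edgeR called 813, 450, 195 and 374 without HS33, HS36, HS46 and HS50 in turn.

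Without leaning on the test, every one of the 4 tumors differed from the control by more than 1.5 log2 CPM in the same direction in 4795 genes (24%), 2164 of them above the control (10.8%) and 2631 below (13.2%). All 898 called genes were among them. With no minimum difference, all 4 tumors lay on one side of the control in 62.4% of genes, above it in 32.6% and below it in 29.7%. An exact permutation of 4 tumors against 1 control cannot give a one-sided p below 0.2, so these counts are a description.

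RNA of hepatocyte genes was far lower in the tumors than in normal liver. All 16 enzymes of the list were below the control in all 4 tumors, as were all 7 secreted proteins and 5 of the 6 membrane proteins. The test called 5 enzymes, 3 secreted proteins and 2 membrane proteins lower, or 10 of 29, and none higher. More than 1.5 below the control in every tumor were 25 of the 29. Over all genes, 29.7% were below in all 4 tumors, 3.88% were called lower and 13.2% were more than 1.5 below in every tumor. The median log2FC was -6.33 for the enzymes, -8.13 for the secreted proteins and -4.66 for the membrane proteins, beside 0.38 for all genes. DESeq2 called 10, 3 and 3 of them lower, where it called 8.5% of all genes lower.

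The urea cycle gene ARG1 (ENSCAFG00000000386) was at 12.05 log2 CPM in the control and at 2.97, 1.49, -0.65 and -0.43 in HS33, HS36, HS46 and HS50. Its log2FC was -10.47 (standard error, SE, 1.45, and adjusted p = 0.02 in edgeR), and the 4 tumors held 0.185%, 0.0661%, 0.0150% and 0.0175% of the control level. The tumors with the HS label did not form a group of their own, since HS50 was next to the HHS tumor. GLS2 (ENSCAFG00000000131), the glutaminase of liver, was at 9.58 in the control and at 0.79, 1.76, -0.65 and -0.25 in the same order of tumors, a log2FC of -8.87 (SE 0.92, adjusted p = 0.0115 in edgeR). RDH16, a retinol dehydrogenase, was at 10.04 in the control and at 2.11, 1.08, -0.41 and -1.52 in the tumors. Its log2FC was -9.14 (edgeR adjusted p = 0.0188), but it was also at 5.64 in the spleen control and 5.76 in the lung control, so that the 4 liver tumors were below these tissues as well.

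A few genes were at nearly the same level in all 4 tumors. ALDH7A1 (ENSCAFG00000000588), an enzyme of lysine breakdown, was at 11.06 in the control and between 5.34 and 5.67 in the tumors, with a mean of 5.48 ± 0.16 (SD, n = 4). The spleen and lung controls lay in the same region, at 5.74 and 6.16. The apolipoprotein genes APOM and APOF, whose products travel on plasma lipoproteins, had the smallest adjusted p-values of the lists, both 0.00846 by edgeR. APOM (ENSCAFG00000000598) was at 9.65 in the control and 2.05 ± 0.31 (SD, n = 4) in the tumors, a log2FC of -7.58 (SE 0.48), and APOF (ENSCAFG00000000122) was at 6.83 and -1.28 ± 0.27, a log2FC of -8.13 (SE 0.49). The complement gene C4A (ENSCAFG00000000701) was at 13.11 in the control and at 7.86, 6.92, 8.76 and 8.08 in the tumors, a log2FC of -5.07 (edgeR adjusted p = 0.0251). Its name was taken from a human homolog, and reads of complement C4 copies may be shared. ATP8B1, a lipid flippase of the bile canaliculus, and TMPRSS6, a protease that restrains hepcidin, were called as well, with log2FC values of -3.76 and -6.84 and edgeR adjusted p-values of 0.0183 and 0.0466. ALDH8A1, an aldehyde dehydrogenase, was the remaining called enzyme, with a log2FC of -8.79 (edgeR adjusted p = 0.0114).

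Several genes were far below the control without passing the test, and in them HS33 stood above the other 3 liver tumors. PLG (ENSCAFG00000000758), which encodes plasminogen, was at 13.72 in the control, 6.08 in HS33, -0.20 in HS36, -3.82 in HS46 and -4.20 in HS50. HS33 thus held 10849 reads of PLG and HS50 held 6, where the control held 834415. The log2FC was -9.62 with an SE of 3.32 (edgeR adjusted p = 0.161), and without HS33 it was -15.37 (edgeR adjusted p = 0.0304). LECT2, a secreted chemotactic factor of liver, was at 11.14 in the control and at 536, 7, 1 and 0 reads in HS33, HS36, HS46 and HS50. LEAP2, an antimicrobial peptide of liver, was at 9.22 in the control, 4.18 in HS33 and between -3.82 and -3.27 in the other 3 tumors. PPARA, a nuclear receptor that drives fatty acid oxidation, had 2840 reads in the control, 55 in HS33 and 0 in each of the other 3 tumors. HS33, at -1.49, was within the range of PPARA in tumors of other sites, -3.33 to -0.72, and the other 3 liver tumors were below that range. GLDC, of the glycine cleavage system, was at 11.37 in the control, 2.99 in HS33 and between -4.20 and -1.21 in the others.

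Across the list, HS33 had the highest level of the 4 tumors in 9 of 16 enzymes and 5 of 7 secreted proteins, and HS36 in the other 7 enzymes. How often each tumor was the highest or lowest over all genes was not counted, here or for the lists below. The median share of the control level over the 29 hepatocyte genes was 2.14% in HS33, 0.443% in HS36, 0.408% in HS46 and 0.612% in HS50. These shares were not alike between genes of 1 tumor, and in HS33 they ran from 0.148% for LECT2 to 29.0% for SLC39A5, a zinc transporter. HS33 was above all 14 tumors of other sites in 10 of the 29 genes, where it was so in 6.94% of all genes tested. HS36, HS46 and HS50 were above all 14 in 2, 1 and 0 of the 29, with 7.24%, 4.79% and 7.13% over all genes. They were below all 14 in 3, 5 and 3 of the 29, with 4.12%, 2.95% and 3.82% over all genes, and HS33 in 0.

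FBP1 (ENSCAFG00000001305), the gluconeogenic enzyme fructose-1,6-bisphosphatase, had the widest spread of the enzymes. It was at 9.84 in the control and at 5.45, 8.70, -0.96 and 8.28 in HS33, HS36, HS46 and HS50, or 4.76%, 45.5%, 0.0561% and 34.0% of the control. HS36 and HS50 thus had the highest levels, while the HHS tumor had 87 reads. The log2FC of -2.25 (SE 2.07, adjusted p = 0.55 in edgeR) was within the spread of the tumors. FBP1 was not a mark of liver among these samples, since tumors of other sites had a median of 7.54 and reached 10.59. SUOX, sulfite oxidase, was also nearer to the control, between 5.16 and 6.27 against 7.91. AVPR1A, a vasopressin receptor, was low in the control, at -1.21 with 26 reads, and was on both sides of it in the tumors, from -3.15 in HS33 to -0.20 in HS50.

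**Figure D1:**
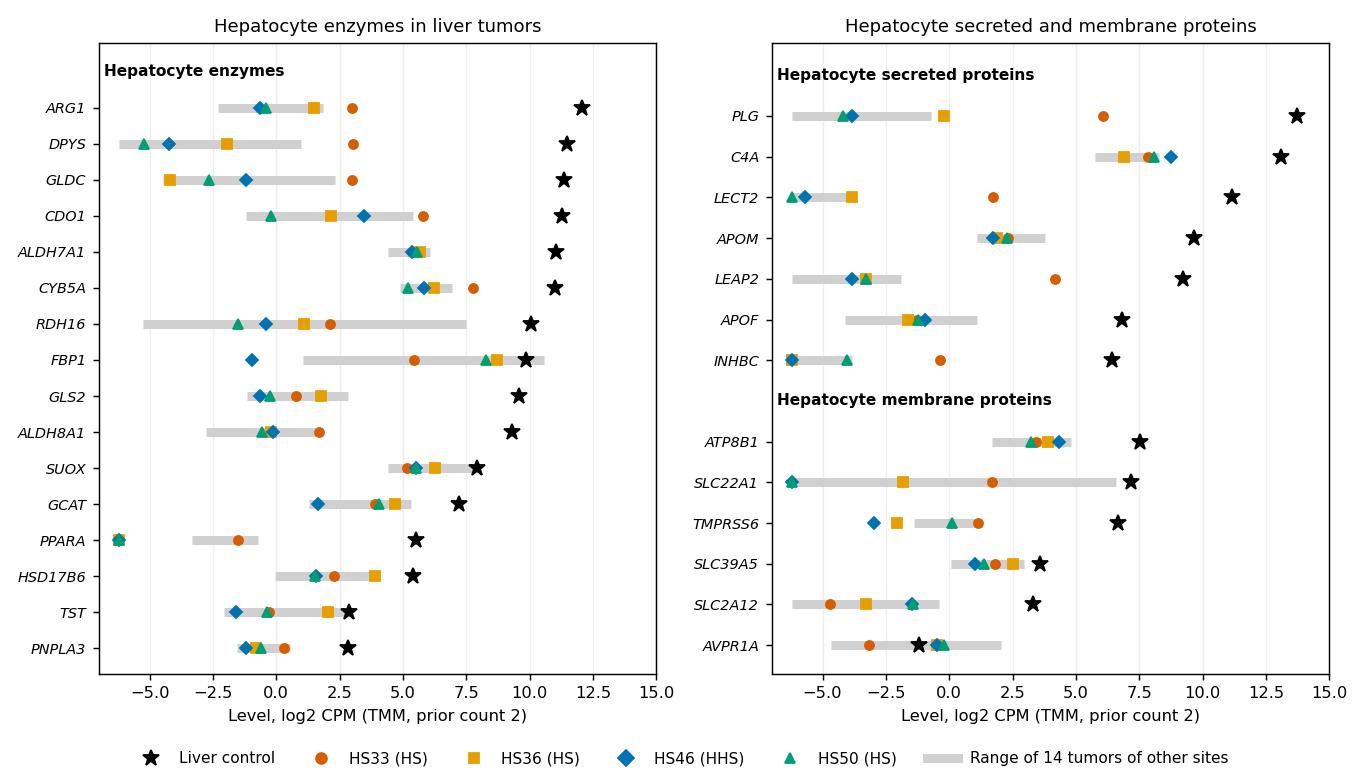
Level (horizontal axis, log2 CPM) of each hepatocyte gene in the liver control (star), in each of the 4 liver tumors (colored symbols) and as the range of the 14 tumors of other sites (gray bar), with genes ordered by their level in the control. The tumors lie left of the star in 28 of 29 genes, HS33 lies furthest right of the tumors in PLG, LEAP2 and LECT2, and FBP1 is spread from -0.96 to 8.70.

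The list of bile duct and other epithelial genes was lower in the tumors in the same manner. Of its 7 genes, 6 were below the control in all 4 tumors and 4 were called lower, with a median log2FC of -5.18, where 29.7% of all genes were below in all 4 tumors and 3.88% were called lower. The summed level of the list was 7.52 log2 CPM in the control and 1.12 to 3.37 in the tumors. It was 10.15 in the lung control, 4.40 in the spleen control and 0.56 to 6.22 in tumors of other sites. The list was thus not particular to bile duct. ERBB3 (ENSCAFG00000000097), a receptor of the epidermal growth factor receptor family, was at 7.26 in the control and at 2.73, 1.45, 1.02 and 0.10 in HS33, HS36, HS46 and HS50, a log2FC of -5.63 (edgeR adjusted p = 0.0256). MAL2 (ENSCAFG00000000839), a protein of transcytosis in polarized epithelial cells, had 742 reads in the control and 6, 1, 1 and 0 in the tumors, and its edgeR adjusted p was 0.0241. ANXA13, an annexin, had a log2FC of -5.18 (edgeR adjusted p = 0.0277). ONECUT2, a transcription factor, had 164 reads in the control and 1 read over the 4 tumors (edgeR adjusted p = 0.0264), a ratio of 1599 with a 95% counting interval of 283 to 63519. MAL2 and ONECUT2 passed the filter only through the control, so their lower level was fixed beforehand. HS33 had the highest level of 4 of the 7 genes, and in GRHL2, an epithelial transcription factor, it was above the control, at 1.41 against 0.58, while the other 3 tumors were between -5.53 and -1.77.

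Of the 5 endothelial genes, 3 were below the control in all 4 tumors, where 29.7% of all genes were. The median log2FC was -2.06. The edgeR test called 0 of the 5, and 1 was lower at p below 0.05 before adjustment, as were 2591 of the 19979 genes tested. HS33 was the lowest tumor in 4 of the 5. FLT4, the receptor of lymphatic vessels, was at 4.36 in the control and at 0.65, 2.63, 2.44 and 2.71 in HS33, HS36, HS46 and HS50. The summed level of the list was 6.45 in the control, 3.25 in HS33 and 4.58 to 5.73 in the other tumors. HS33 was below all 14 tumors of other sites in 4 of the 5 genes, where it was so in 3.90% of all genes. In HS33 a higher level of many hepatocyte genes than in the other liver tumors stood beside a lower level of endothelial genes, and whether the one bears on the other was not tested.

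Of the 12 fibroblast and matrix genes, 2 were called lower, where 3.88% of all genes were, and the median log2FC was 0.15. One fit over all 24 libraries called 0 of the 12 lower, DESeq2 called 3, and 3 were lower at p below 0.05 before adjustment. Over all genes, the shared fit called 6.85% lower and DESeq2 called 8.5% lower. Before adjustment, 2591 of the 19979 genes tested were lower at p below 0.05 in edgeR. FBLN1 (ENSCAFG00000000804), the matrix protein fibulin 1, was at 8.57 in the control and at 5.61, 5.88, 4.69 and 4.28 in the tumors, a log2FC of -3.32 (edgeR adjusted p = 0.0433). COL14A1, a fibril-associated collagen, was at 6.01 in the control and at 1.96, 1.39, 0.38 and 0.04, a log2FC of -4.87 (edgeR adjusted p = 0.0269). In the shared fit the edgeR adjusted p was 0.166 for FBLN1 and 0.113 for COL14A1. FBLN1 lost its call without any 1 of the 4 tumors (edgeR adjusted p 0.0617 to 0.0986) and COL14A1 without HS36, HS46 or HS50 (0.0528 to 0.0704). THBS2, thrombospondin 2, went the other way in 3 tumors, at 6.48, 6.71 and 6.29 in HS33, HS36 and HS46 against 3.29 in the control, and was at 3.12 in HS50.

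Genes of the lineage from which HS arises were mostly above normal liver. Of the 17 genes, 14 were above the control in all 4 tumors, where 32.6% of all genes were. More than 1.5 above it in every tumor were 12 of the 17 and 10.8% of all genes. The median log2FC was 3.04. After adjustment edgeR called 0 of the 17, while 12 were higher at p below 0.05 before adjustment, as were 9.44% of all genes, and DESeq2 called 12, where it called 10.3% of all genes higher. One fit over all 24 libraries called 3 of the 17 higher and 2.77% of all genes.

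LGALS1 (ENSCAFG00000001487), galectin 1, was at 4.48 in the control and at 7.92, 9.55, 8.92 and 9.57 in HS33, HS36, HS46 and HS50. Its log2FC was 4.65 (SE 1.09, adjusted p = 0.0706 in edgeR). LYZ, lysozyme, was at 6.90 in the control and at 9.79, 11.19, 10.91 and 9.79, a log2FC of 3.66 (SE 1.10, adjusted p = 0.121 in edgeR). The tumors were close together in RAC2, a GTPase of the phagocyte oxidase, at 6.67 ± 0.39 (SD, n = 4) against 3.92. They were also close in CYTH4, an exchange factor of ADP-ribosylation factors, at 7.55 ± 0.49 against 4.08, where the edgeR adjusted p was 0.0596. CPM, the gene of carboxypeptidase M, was at -0.79 in the control and at 5.11, 3.64, 6.53 and 4.60 in the tumors, but the lung control was at 5.69. CSF2RB, the shared receptor chain of GM-CSF and IL-3, was at 4.61 in the control and at 6.19, 6.60, 7.83 and 7.67. TNF was at 1.44 in the control and between 3.86 and 4.73 in the tumors.

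The spread was widest in DCSTAMP, a membrane protein needed for the fusion of macrophages and osteoclasts, at 0.57, -2.04, 2.26 and 3.704 in HS33, HS36, HS46 and HS50 and with 1 read in the control. The ratio of the summed tumors to the control was 308, with a 95% counting interval of 55.2 to 12157. PARVG, a parvin of blood cells, was near the control of 2.26 in HS33 and HS36, at 2.12 and 1.65, and above it in HS46 and HS50, at 6.16 and 4.94. MMP19, a matrix metalloproteinase, and IRAK3, a brake on Toll-like receptor signaling, were below the control in all 4 tumors, with log2FC values of -1.47 and -1.23 that did not pass the test. The spleen control was within or above the range of the 4 tumors in most of these genes, at 7.72 in RAC2, 5.50 in NCF4 and 9.82 in LYZ. A level above normal liver was therefore not always a level above normal spleen.

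Of the 14 antigen presentation genes, 10 were above the control in all 4 tumors. The edgeR test called 0, with 7 higher and 1 lower at p below 0.05 before adjustment. DESeq2 called 8 higher. The shares over all genes were 32.6% above in all 4 tumors, 9.44% higher at p below 0.05 and 10.3% higher by DESeq2. In the lower direction, 2591 of the 19979 genes tested had p below 0.05 in edgeR. The list gene lower at p below 0.05 was the class II gene HLA-DPB1, with a log2FC of -4.07 (edgeR adjusted p = 0.133). It had 18 reads in the control and 2, 2, 4 and 2 in HS33, HS36, HS46 and HS50, near the floor of 3 counts. The MHC class II chain gene DLA-DRA (ENSCAFG00000000803) was at 9.57 in the control and at 12.82, 12.15, 12.46 and 12.94 in HS33, HS36, HS46 and HS50, or 953%, 599%, 740% and 1035% of the control. Its log2FC was 3.06 (SE 0.99, adjusted p = 0.141 in edgeR). DLA-DMA, which loads peptides onto class II molecules, was at 5.32 in the control and 8.80 ± 0.19 (SD, n = 4) in the tumors, a log2FC of 3.50 (SE 0.70), and its edgeR adjusted p of 0.0504 was just above the threshold. Class II genes are similar to each other and vary between dogs, so reads may have been shared or lost between copies.

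DLA-DOA and DLA-DOB, which form the class II modulator DO found mainly in B cells, split the tumors. DLA-DOB was at 1.98 in the control, 2.66 in HS33 and 0.45 in HS36, and at 5.16 in HS46 and 5.06 in HS50. DLA-DOA was at 0.63 in the control, at 0.48 and -1.11 in HS33 and HS36 and at 3.60 and 4.05 in HS46 and HS50. The class I gene DLA88 (ENSCAFG00000000487) was spread widely, at 7.45, 9.03, 11.25 and 5.90 in HS33, HS36, HS46 and HS50 against 9.04 in the control. Its log2FC of 0.61 became -1.05 without HS46. The class I gene DLA-64, at 7.11 in the control, was between 10.40 and 11.24 in the tumors.

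**Figure D2:**
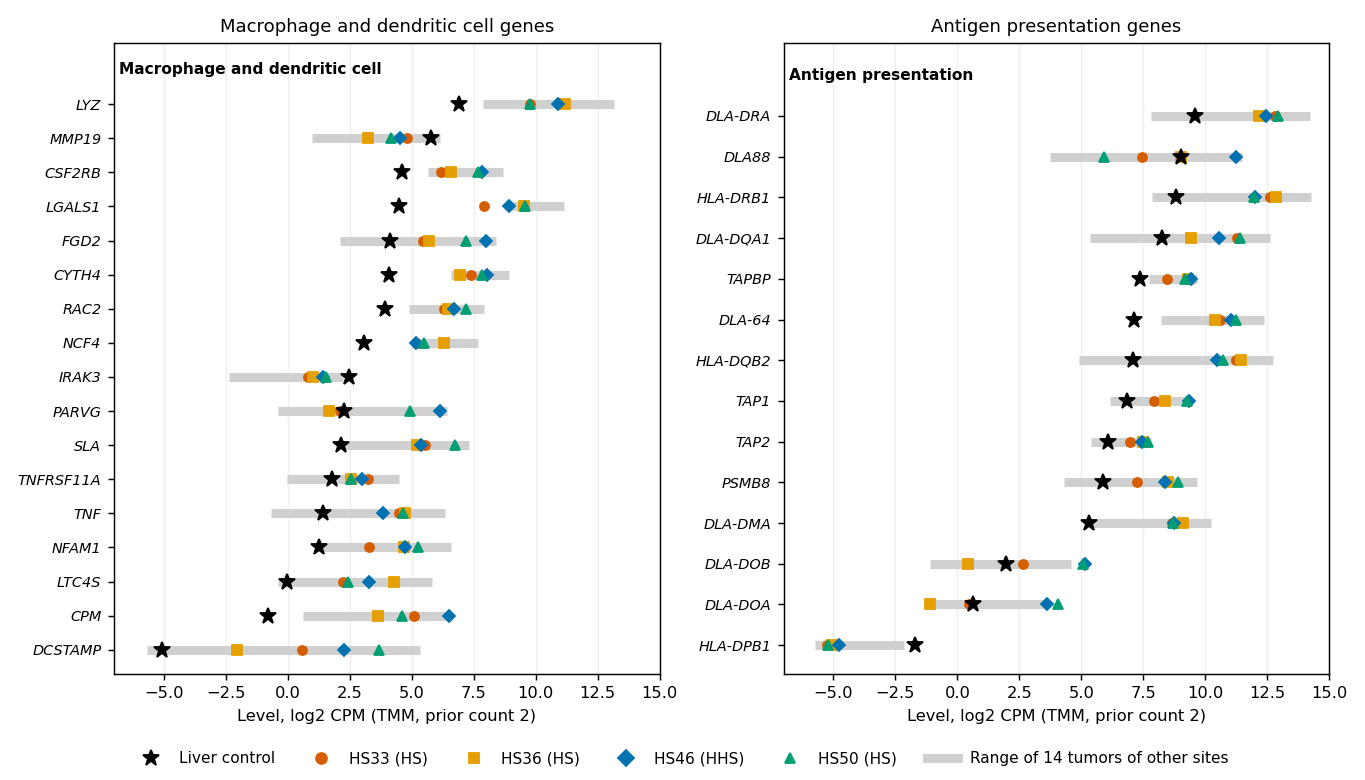
Level (horizontal axis, log2 CPM) of the macrophage and dendritic cell genes (left) and the antigen presentation genes (right) in the liver control (star), each liver tumor (colored symbols) and the 14 tumors of other sites (gray bar, range). The tumors lie right of the star in 14 of 17 and in 10 of 14 genes, and HS46 and HS50 lie apart from HS33 and HS36 in PARVG, DLA-DOA and DLA-DOB.

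HS46 and HS50 also lay above HS33 and HS36 in some genes of T cells and natural killer cells, though not in the whole list. THEMIS, which acts in T-cell receptor signaling, was at -1.01 in the control, -0.76 in HS33 and -3.66 in HS36, and at 3.16 in HS46 and 2.37 in HS50. IL2RB (ENSCAFG00000001511), a chain of the interleukin 2 receptor, was at 2.60 in the control, 3.31 in HS33 and 1.11 in HS36, and at 5.78 in HS46 and 7.30 in HS50. CD226, an activating receptor of these cells, was at 0.35 in the control, 0.21 and 0.15 in HS33 and HS36, and 3.55 and 4.28 in HS46 and HS50. HS46 and HS50 were thus above the control in all 3 genes and HS36 was below it.

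The gene of interferon gamma, IFNG, had 2 reads in the control and 252, 60, 820 and 2031 in HS33, HS36, HS46 and HS50, a ratio of 162.3 for the summed tumors with a 95% counting interval of 44.9 to 1340. HS50 was above all 14 tumors of other sites in 7 of the 10 lymphocyte genes and HS46 in 5, where this held in 7.13% and 4.79% of all genes. It held for 1 of the 10 in HS33 and 1 in HS36. Of the list, edgeR called 0 genes against the control, with 2 higher and 1 lower at p below 0.05 before adjustment. DESeq2 called 3 of the 10 higher and 1 lower. The shares over all genes were 9.44% higher at p below 0.05, 10.3% higher by DESeq2 and 8.5% lower by DESeq2. Lower at p below 0.05 in edgeR were 2591 of the 19979 genes tested. SAMD3 of the list was lower in the tumors, at 0.80 in the control and with 4 reads in HS50 and 0 in the other 3 tumors. It passed the filter only through the control. The summed level of the list was 5.08 in the control and 7.14, 6.56, 7.29 and 8.37 in HS33, HS36, HS46 and HS50, so that HS33 was next to HS46, and 8.01 in the spleen control. TAGAP, a GTPase activator of activated T cells, was the steadiest of the list, at 2.61 in the control and at 6.91, 6.14, 5.70 and 6.59 in the tumors, lowest in HS46 (log2FC 3.80, edgeR adjusted p = 0.053).

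Of the 13 genes of mitosis and the cell cycle, 9 were above the control in all 4 tumors, with a median log2FC of 1.29. Of the list, 5 were higher and 1 lower at p below 0.05 before adjustment and edgeR called 0, while DESeq2 called 5 higher and 1 lower. Over all genes, 32.6% were above the control in all 4 tumors, 9.44% were higher at p below 0.05 and DESeq2 called 10.3% higher. In the lower direction, 2591 of the 19979 genes tested had p below 0.05 in edgeR, and DESeq2 called 8.5%. GTSE1 (ENSCAFG00000000782), a microtubule-binding protein of G2 and S phase, was at -0.37 in the control and at 5.68, 4.26, 2.91 and 4.65 in HS33, HS36, HS46 and HS50. Its log2FC was 5.08 (SE 1.41, adjusted p = 0.102 in edgeR). KIFC1, a mitotic kinesin, was at 1.26 in the control and at 6.09, 6.85, 4.28 and 5.999, a log2FC of 4.81 (SE 1.25, adjusted p = 0.088 in edgeR). CDC25C, the phosphatase of mitotic entry, was at -0.03 in the control and at 3.77, 2.27, 1.90 and 3.41. Every tumor was above normal liver in these 3 genes, and the HHS tumor was the lowest in each. CDK4, a kinase of G1, was at 5.83 in the control and at 7.66, 8.41, 6.66 and 7.37, a log2FC of 1.83 (SE 0.83, adjusted p = 0.266 in edgeR). CDC14B, a phosphatase that counteracts mitotic kinases, was below the control in all 4 tumors, between -0.51 and 1.73 against 3.98.

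Of the 16 genes of DNA replication and repair, 9 were above the control in all 4 tumors and 4 below it, with a median log2FC of 0.80 and 0 calls by edgeR, 3 at p below 0.05 before adjustment, and 4 higher by DESeq2. All genes had 32.6% above and 29.7% below in all 4 tumors, so the count below was under the share of all genes. Higher at p below 0.05 in edgeR were 9.44% of all genes, and DESeq2 called 10.3% higher. DSCC1, of the complex that loads the replication clamp, was at 0.27 in the control and 3.97 ± 0.30 (SD, n = 4) in the tumors, and ATAD2, a chromatin protein of replicating cells, was at 3.54 and 6.55 ± 0.37. Their log2FC values were 3.74 and 3.05 with edgeR adjusted p-values of 0.0561 and 0.0569. RAD50, XRCC6 and ASF1A had values in the tumors on both sides of the control. HS46 was the lowest of the 4 tumors in 8 of the 13 mitosis genes and 8 of the 16 replication genes, and HS33 was the highest in 8 and 6. The shares of all genes in which they were lowest or highest were not counted, so these positions are a description.

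**Figure D3:**
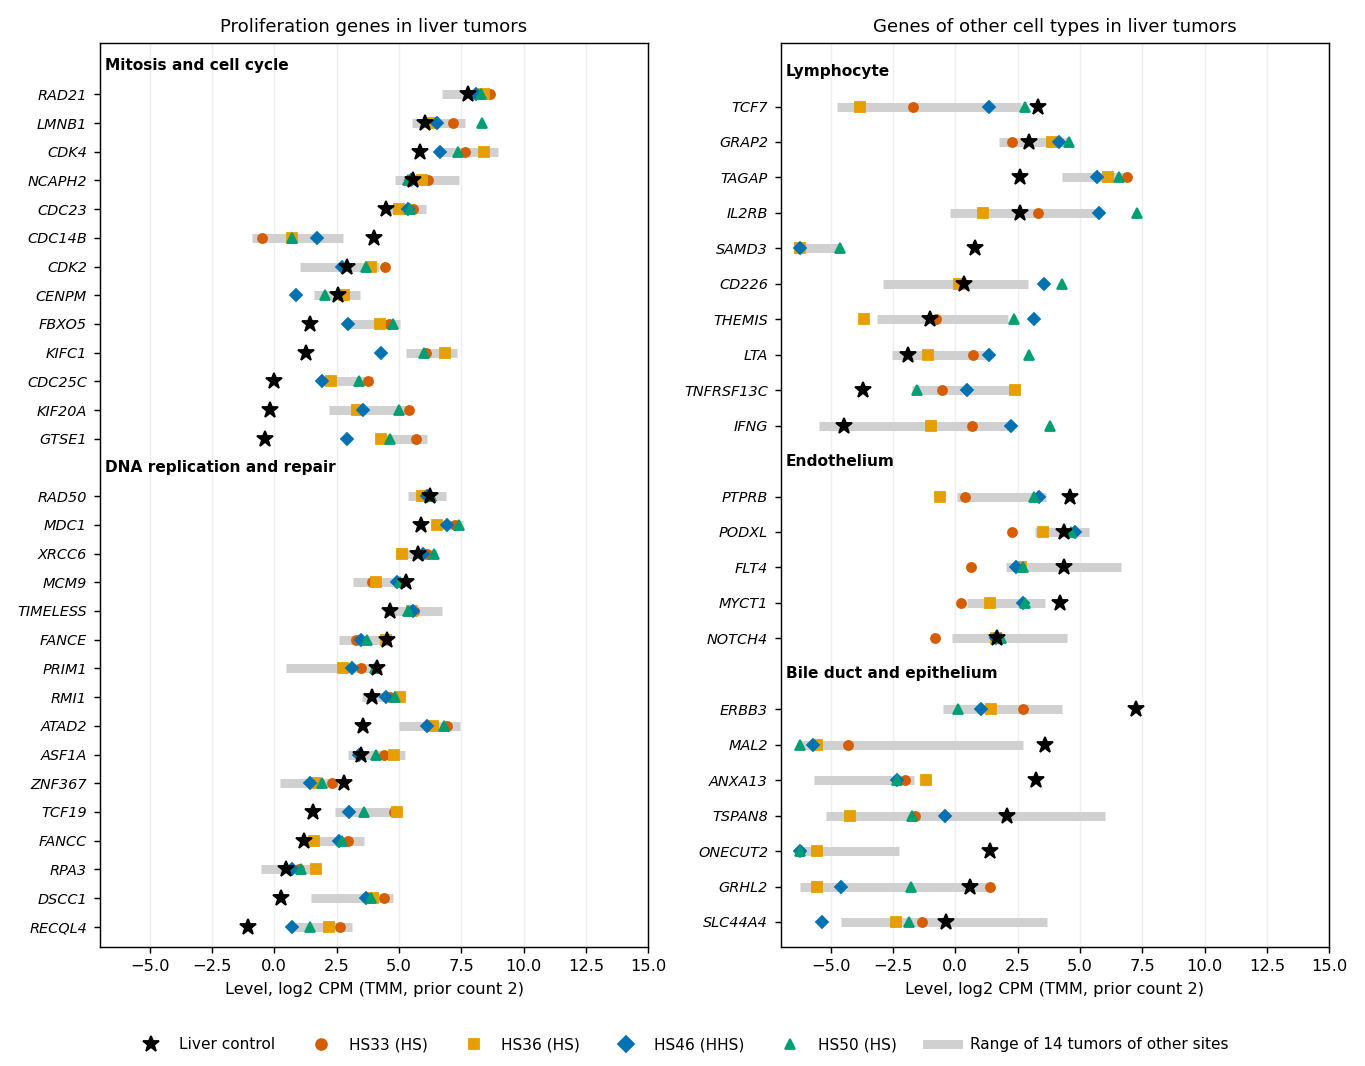
Level (horizontal axis, log2 CPM) of the cell cycle and replication genes (left) and of the lymphocyte, endothelial and bile duct genes (right) in the liver control (star), each liver tumor (colored symbols) and the 14 tumors of other sites (gray bar, range). HS46 lies left of the other tumors in KIFC1, GTSE1 and CENPM, HS46 and HS50 lie right of HS33 and HS36 in THEMIS, IL2RB and CD226, and HS33 lies left in FLT4 and NOTCH4.

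PDGFB (ENSCAFG00000001356), a platelet-derived growth factor chain, was the only list gene called higher. It was at 0.47 in the control and at 4.96, 4.68, 4.62 and 5.20 in HS33, HS36, HS46 and HS50, so that the tumors spanned a narrow range far above the control. Its log2FC was 4.43 (SE 0.72, adjusted p = 0.0307 in edgeR), and the lung control was higher than all 4 tumors, at 6.34. The call was lost in one fit over all 24 libraries (edgeR adjusted p = 0.0655), in the test against a log2FC of 1.5 (0.0540) and without HS33, HS46 or HS50 (0.0561, 0.0728 and 0.0729). MYC was at 3.31 in the control and at 6.27, 6.71, 5.42 and 5.90 in the tumors, a log2FC of 2.84 (SE 0.75, adjusted p = 0.0904 in edgeR), with the spleen control at 5.63. Of the 11 growth signaling genes, 6 were above the control in all 4 tumors and 1 below, where 32.6% and 29.7% of all genes were. The test called 1 of the 11 higher, where 0.616% of all genes were. Before adjustment 2 were higher at p below 0.05 in edgeR, as were 9.44% of all genes.

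Of the lysosomal genes, 12 of 13 passed the filter, since CTSL had 4 reads over the 5 libraries, and the median log2FC of 0.44 was next to that of all genes. SMPDL3A (ENSCAFG00000001002), a phosphodiesterase that acts on nucleotides, was at 3.50 in the control and at 9.76, 11.30, 12.05 and 11.24 in the tumors. The 4 tumors had 139483 to 736305 reads where the control had 701, and the log2FC of 7.79 (SE 1.59) had an edgeR adjusted p of 0.0522, just above the threshold. LAPTM4B, a lysosomal membrane protein, was called lower, at 4.90 in the control and between -3.16 and -1.12 in the tumors (log2FC -6.63, edgeR adjusted p = 0.0166). The sterol synthesis genes SQLE, ACAT2 and SREBF2 were below the control in all 4 tumors, as were 29.7% of all genes, and did not pass the test. SQLE, squalene epoxidase, was at 8.56 in the control and at 5.15, 4.08, 1.84 and 4.92, with the HHS tumor at 0.950% of the control.

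**Figure D4:**
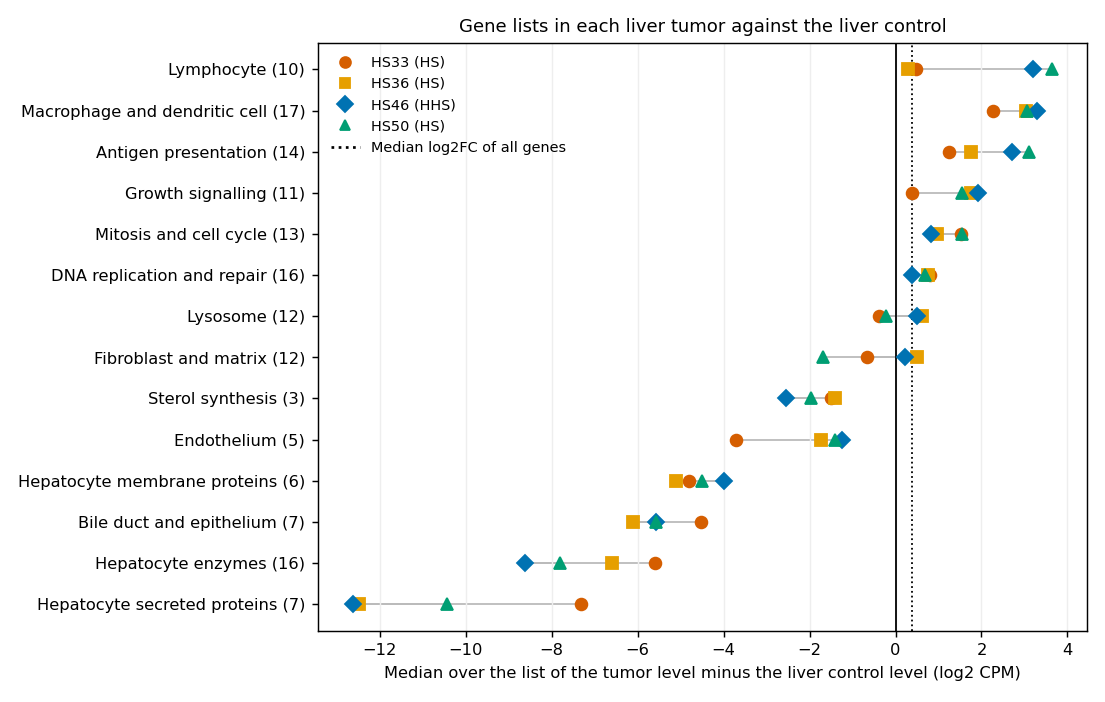
Median over each gene list (number of genes tested in brackets) of the level in a tumor minus the level in the liver control (horizontal axis, log2 CPM) for each of the 4 liver tumors, with the median log2FC of all genes, 0.38, as a dotted line. The 3 hepatocyte lists and the bile duct list lie between -12.63 and -4.00, the macrophage list between 2.26 and 3.29, and the lymphocyte list at 0.30 and 0.48 in HS36 and HS33 and at 3.19 and 3.65 in HS46 and HS50.

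Among genes with a name, 1006 were tested and 54 called, 9 higher and 45 lower. Of all genes tested, 4.49% were called, 0.616% higher and 3.88% lower. Among genes with a mean level of at least 3 log2 CPM in either group, the largest log2FC called higher was that of SERPINB8 (ENSCAFG00000000058), an inhibitor of serine proteases, at -1.57 in the control and at 5.73, 6.76, 4.78 and 4.67 in HS33, HS36, HS46 and HS50. Its log2FC was 7.37 (SE 1.46, adjusted p = 0.048 in edgeR). It was followed by PDLIM4, a LIM domain protein of the actin cytoskeleton, at 4.69, by PDGFB, and by AGPAT4, an acyltransferase of phospholipid synthesis, at 4.40. AGAP2 and SH3BP1, which act on small GTPases, both had a log2FC of 4.16, and the transcription factor TRPS1 had 4.02, with edgeR adjusted p-values of 0.0347 to 0.0456 for these 3. TRPS1 was at 4.58, 4.52, 5.12 and 4.61 in the tumors and 0.72 in the control. The other named genes called higher, given here after their values were seen, were ARHGAP9, a GTPase activator whose name here comes only from a human homolog, with a log2FC of 4.19 (edgeR adjusted p = 0.0262), and NDUFA4L2 (edgeR adjusted p = 0.0365). NDUFA4L2 had 2 reads in the control, and the ratio of the summed tumors to it was 243 with a 95% counting interval of 67.2 to 2005.

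Of those called lower, the largest log2FC was that of CSMD3, with 1495 reads in the control and 1, 0, 3 and 0 in the tumors. CSMD3 passed the filter only through the control, so its lower level was fixed beforehand. Next came LGALS2, galectin 2, at 10.12 in the control and at 1.30, -2.04, -1.63 and -3.29. IYD, which recovers iodide from iodotyrosines, was at 9.20 and at 0.39, -3.52, -4.57 and -1.87, and UNC93A had 1678 reads in the control and 11, 1, 0 and 0 in the tumors. The edgeR adjusted p-values of these 4 genes were 0.0138, 0.0285, 0.0322 and 0.0376. In each of them the highest tumor was far below the control, and HS33 was the highest tumor in LGALS2, IYD and UNC93A.

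The levels were also compared between the 4 liver tumors and the 14 tumors of other sites, which does not lean on the single control. Of 19279 genes tested, edgeR called 0 (0%), with 936 at p below 0.05 before adjustment, and the smallest adjusted p was 0.141. DESeq2 called 22, 1 higher and 21 lower, and without the filter on low counts edgeR called 27, all higher. The 4 liver tumors did not overlap with the other 14 in 7 genes (0.0363%), 5 of them higher (0.0259%) and 2 lower (0.0104%), and none of the 7 has a name here.

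The smallest adjusted p-value, 0.141, was shared by several genes, of which PLG and LEAP2 have names. PLG had a log2FC of 8.07 and LEAP2 of 5.13 in liver tumors against other tumors. These values rested on HS33, without which the log2FC was 2.31 for PLG and -0.72 for LEAP2. Over the 16 hepatocyte enzymes the median log2FC against other tumors was -0.01, over the 5 secreted proteins tested 0.74 and over the 6 membrane proteins -0.34, beside -0.07 for all genes. Among genes that carry a dog symbol, average 3 log2 CPM or more in the higher group and lie beyond 1.5 from the liver control on one side in all 4 tumors, the largest differences were IFGGC1 at 1.23, SMPDL3A at 1.00, TAGAP at 0.95, ADGRG6 at 0.93 and IRF1 at 0.81 on the higher side. On the lower side they were MOXD1 at -4.51, COL14A1 at -3.53, NDUFA4L2 at -3.40, LY6E at -2.92 and FLT4 at -2.36, with edgeR adjusted p-values of 0.936 or more for all 10, so that none passed the test.

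In distance over the 500 most variable genes, HS33 lay 144.7 from the liver control, 134.6 from the lung control and 147.8 from the spleen control. The other 3 liver tumors lay 197 to 210 from the liver control, within the 188.8 to 212.8 of tumors of other sites. Pairs of liver tumors lay 72.3 to 122 apart. The nearest library of HS33 was HS36, a liver tumor, whereas that of HS36 was HS37, a tumor of the thorax, and that of both HS46 and HS50 was HS41, the HHS tumor of a lymph node.

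With 1 HHS tumor against 3 HS tumors no test was made, and the values are given as positions. HS46 lay more than 1.5 above the range of the 3 HS tumors in 3 of 149 list genes and below it in 5, beside 741 (3.71%) and 421 (2.11%) of all genes. Below the range were FBP1 by 6.41, SLC44A4, a transporter of epithelia, by 2.96, GCAT, of threonine breakdown, by 2.24, SQLE by 2.23 and KIFC1 by 1.72. Above it were ADAMTS2, a procollagen peptidase, by 2.63, DLA88 by 2.22 and LAMA2, a laminin chain, by 1.55. In the macrophage genes CPM and FGD2, HS46 was the highest liver tumor, at 6.53 and 7.98, but it lay less than 1.5 above the next tumor.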

How the data were processed

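RNA was measured in 24 libraries of the tumor table, of which 4 liver tumors and 1 liver control are described. The authors deposited raw counts for 32704 Ensembl identifiers. The submitters' processing notes list cutadapt (3.7) for trimming, STAR (2.7.10a) for alignment, HTSeq (2.0.0) for counting and the CanFam3.1 build. The annotation release and the strand setting are not given in the sources used here. Names were taken from the study's supplementary tables for 1117 identifiers, of which 1025 are dog symbols and 92 come from human homologs, and no coordinates or sequences were used.

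The counts were scaled by TMM factors over the 24 libraries and filtered with filterByExpr, and groups were compared with edgeR (4.0.16, R 4.3.3) by glmQLFit and glmQLFTest with Benjamini-Hochberg adjustment. Genes were called where the log2FC exceeded 1.5 in size and the adjusted p was below 0.05. Only the libraries compared entered each fit, so that with 1 control the spread came from the 4 tumors. The p-values against the control measure the spread between the tumors and not that between normal livers. Those against other tumors measure the spread within both groups of tumors. DESeq2 (1.42.0) and the other alternatives are given at the end. Samples were grouped by their labels. The test was also run on simulated counts. In these the control was given the spread of the tumors, so the run could not check whether a normal liver varies as they do.

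Beside the members of 14 gene lists (150 genes), the genes named were the 8 with the highest and the 8 with the lowest log2FC against the control, and the 5 and 5 against other tumors, among genes with a dog symbol and a mean of at least 3 log2 CPM in the higher group. Called genes came first, and uncalled genes beyond 1.5 from the control in all 4 tumors filled the rest by size. Genes named outside this rule are said to be so. The liver tumors and the lists were chosen with earlier results of these data known. No 2 of the 5 liver libraries agreed within sampling noise. Intervals and the floor of 3 counts cover counting error only.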

Additional observations from a re-analysis of the deposited data

Results flagged for a closer look

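In 10 of 165 genes examined, 1 of the 4 liver tumors stood far from the other 3 by Dixon's criterion, where chance alone gives about 8.25. The tumor was HS33 in 5 genes, HS36 in 2, HS46 in 1 and HS50 in 2.

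HS33 stood above the other 3 liver tumors in PPARA, at -1.49 log2 CPM where they had 0 reads, and in LEAP2, at 4.18 against -3.82 to -3.27. In PPARA, HS33 was within the range of the tumors of other sites, -3.33 to -0.72, and the other 3 liver tumors were below that range. HS33 was low in AVPR1A, at -3.15 against -0.50 to -0.20, and in the endothelial genes FLT4, at 0.65 against 2.44 to 2.71, and NOTCH4, at -0.80 against 1.62 to 1.84.

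HS36 was high in the early response gene IER3, at 5.37 against 0.78 to 1.495, and in ONECUT2, at -5.53, which is 1 read against 0 in the others. HS50 was high in SAMD3, at -4.62, which is 4 reads against 0, and low in THBS2, at 3.12 against 6.29 to 6.71. HS46 was high in TRPS1, at 5.12 against 4.52 to 4.61, a narrow range in a gene where all 4 tumors were far above the control of 0.72.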

How the results depend on the processing

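No paired analysis was possible because there is 1 liver control library and the replicate numbers of the tumors follow accession order. Against the control, 898 genes were called (123 higher, 775 lower). DESeq2 called 3756 (2058 and 1698), one fit over all 24 libraries 1922 (554 and 1368), a test against a log2FC of 1.5 437 (31 and 406) and Benjamini-Yekutieli 0 in either direction, with 4478 genes at an unadjusted p-value under 0.05. Scaling by library size alone gave 359 higher and 255 lower, and a stricter filter gave 213 higher. Leaving out 1 tumor gave 195 to 813 calls, 8 to 70 higher and 187 to 743 lower, lowest without HS46, which also leaves the tumors labelled HS alone. Scaling by DESeq2 size factors gave 1065 calls with a median log2FC of 0.17 over all genes, and a centering added after the data were seen gave 1235. The cause of these differences was not tested.

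Genes beyond 1.5 in all 4 tumors numbered 7286 with library size alone (5796 above and 1490 below) and 2254 at a difference above 3 (729 and 1525). Against tumors of other sites, calls went from 0 to 27 without a filter (27 higher), 22 by DESeq2 (1 higher, 21 lower) and 0 to 1 (0 to 1 lower, 0 higher) on leaving out 1 liver tumor, the 1 without HS33. On leaving out 1 tumor, DLA88 ran from -1.05 (without HS46) to 0.99 and LEAP2 against other tumors from -0.72 (without HS33) to 5.54.

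With library size alone, the list medians were -4.70 for hepatocyte enzymes, -3.09 for hepatocyte membrane proteins, 4.61 for macrophage genes, 4.00 for antigen presentation, 1.98 for lysosome, 2.91 for mitosis, 2.36 for replication, 2.87 for growth signaling, -0.22 for sterol synthesis, 1.71 for fibroblast, -0.52 for endothelium and -3.64 for bile duct genes, beside 1.97 for all genes. With DESeq2 size factors the replication median was 0.59. The median of the secreted proteins ran from -12.30 (without HS33) to -8.03 on leaving out 1 tumor. Of 40 genes followed singly, 16 were called, and of these 16, 2, 8, 11 and 5 lost their call without HS33, HS36, HS46 and HS50. Without HS33, CDO1, PLG, LECT2, LGALS1 and SMPDL3A gained one.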
